A study of Mus musculus with 4 samples.

Results

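The subject is the set of CpG-dense 1 kb windows of mouse embryonic stem (ES) cell DNA at an intermediate methylation level, near 50%, in wild type (WT). Cytosines of chromosomes 1 to 19 with 10 or more calls in all 4 libraries were kept. A window counted as dense if it held 20 or more such cytosines. Its level is the share of methylated calls among all its calls, in percent. Windows with a level of 35 to 65% in both WT libraries were taken, which gave 761 of 20867 dense windows (3.65%) and 20948 cytosines. These WT levels chose the windows, so they are a description and no result. Mean levels were 49.1% and 49.3% in WT replicates 1 and 2.

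CpG islands, the dense clusters of CpG sites found at many promoters, are mostly free of methylation, while most other CpGs of a differentiated genome are methylated. A level near the middle can stand for methylation of 1 parental allele, as at imprinting control regions, for cells that differ from each other, or for a window that spans the edge between a methylated and an unmethylated stretch. Methylation is copied after replication by Dnmt1 with its partner Uhrf1, and set anew by Dnmt3a and Dnmt3b. ES cells kept with inhibitors of Mek and Gsk3 hold less of it than cells kept in serum.

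Methylation was read by reduced representation bisulfite sequencing, in which DNA cut by the enzyme MspI is converted with bisulfite, so that the reads come mainly from CpG-rich sequence. The 2 groups were WT ES cells (2 libraries) and Naa10-KO ES cells (2 libraries); Naa10 is the X-linked gene of the catalytic subunit of the NatA N-terminal acetyltransferase, and the question was how its loss relates to DNA methylation and imprinting. All cells grew in N2B27 with LIF, a Mek inhibitor (PD325901) and a Gsk3 inhibitor (Chir99021) on irradiated embryonic fibroblast feeders, and then 5 passages without feeders. The labels do not say whether replicates were separate clones or cultures, how the KO was made, or the sex or strain. The spread between libraries of a genotype, on which the p-values rest, may thus be technical. The libraries held 68586396 to 79540412 calls. Member windows had a median of 770 to 888 calls per library, and the 95% Wilson interval of a window level reached a median of 3.23 and 3.46 points to either side in WT and 2.34 and 1.92 points in KO. These intervals cover counting error only.

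Promoters show what some of these windows hold. RefSeq promoters (250 bases before to 50 after a start site, build GRCm38.p6) were placed on the deposited mm9 positions by the spacing of their CpGs, and 21 of 743 members on the chromosomes with promoters in that table carried one. The upstream 250 bases of 4 are printed, chosen as a promoter at an intermediate level with a step at its start (Clcn4), a uniform one (Prss42) and the 2 genes of the germline list (Hormad1, Tdrd1). Capitals mark the CpGs, whose cytosines are what was measured; letters are from RefSeq and run 5′ to 3′ on the gene's strand. On mm9 they lie at chr3:95363349-95363598 (Hormad1, plus strand), chr9:110700439-110700688 (Prss42, plus), chr7:7252269-7252518 (Clcn4, minus) and chr19:56900449-56900698 (Tdrd1, plus).
Hormad1: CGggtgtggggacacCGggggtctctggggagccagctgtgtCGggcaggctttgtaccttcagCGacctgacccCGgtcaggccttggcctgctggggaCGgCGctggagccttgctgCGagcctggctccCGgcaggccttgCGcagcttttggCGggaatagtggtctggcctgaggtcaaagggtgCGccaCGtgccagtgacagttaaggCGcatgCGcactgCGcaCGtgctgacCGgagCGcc
Prss42: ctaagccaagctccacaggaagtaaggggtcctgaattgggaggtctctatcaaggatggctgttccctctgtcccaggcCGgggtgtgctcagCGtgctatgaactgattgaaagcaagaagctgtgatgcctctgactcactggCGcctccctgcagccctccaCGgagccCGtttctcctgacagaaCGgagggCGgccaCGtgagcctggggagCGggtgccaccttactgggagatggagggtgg
Clcn4: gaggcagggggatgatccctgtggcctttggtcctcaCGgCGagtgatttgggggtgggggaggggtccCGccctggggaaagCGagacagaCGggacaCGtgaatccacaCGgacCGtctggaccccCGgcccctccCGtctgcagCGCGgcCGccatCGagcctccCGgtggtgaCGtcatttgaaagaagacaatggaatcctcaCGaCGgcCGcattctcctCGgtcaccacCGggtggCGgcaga
Tdrd1: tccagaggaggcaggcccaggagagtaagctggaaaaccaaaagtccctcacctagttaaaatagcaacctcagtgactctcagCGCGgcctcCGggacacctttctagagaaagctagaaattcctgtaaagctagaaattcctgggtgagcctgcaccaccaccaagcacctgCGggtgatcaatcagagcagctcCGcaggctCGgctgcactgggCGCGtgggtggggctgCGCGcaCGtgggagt
The stretches hold 19, 9, 22 and 11 CpGs, in the order printed.

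KO levels were low throughout the 761 windows. The mean window level was 14.2% in the first KO library (replicate 1) and 9.40% in the second. WT averaged 49.2% ± 0.108 (SD, n = 2) and KO 11.8% ± 3.37 (SD, n = 2), which puts KO -37.4 points from WT. KO thus held 23.9% of the WT level. The lowest, median and highest window levels in KO replicate 1 were 0.698%, 13.8% and 39.6%, and those of KO replicate 2 were 0.151%, 8.89% and 25.9%. In 14 windows both KO libraries stayed at 20% or more, and in 45 both were below 5%. KO replicate 2 lay below KO replicate 1 in 713 of the 761. Permuting the 4 library means exactly (two-sided) gave p = 0.333, the lowest that 2 against 2 libraries can reach.

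In 761 of 761 windows each KO level was under each WT level, where the same was true of 89.0% of all 119319 windows with 3 or more shared cytosines. With edgeR's quasi-likelihood test over those 119319 windows, Benjamini-Hochberg adjusted p below 0.05 and a fall of at least 10 points, 760 of 761 members were called lower and 0 higher, where 76.5% of all windows were called lower. The median difference was -37.0 points in the members. Windows near 0 cannot fall by 10 points, and the members were picked on WT levels far from 0, so nothing is read from the higher count. Each library was also centred on its own median over all windows, using the log of methylated over unmethylated calls (limma). On that scale 11 members (1.45%) were below the library-wide shift and 426 (56.0%) above it, against 8.92% below and 28.9% above over all windows. As a share of the WT level, members held less in KO (23.9%) than all windows did (28.6%), so the 2 scales place the members differently.

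**Figure D1:**
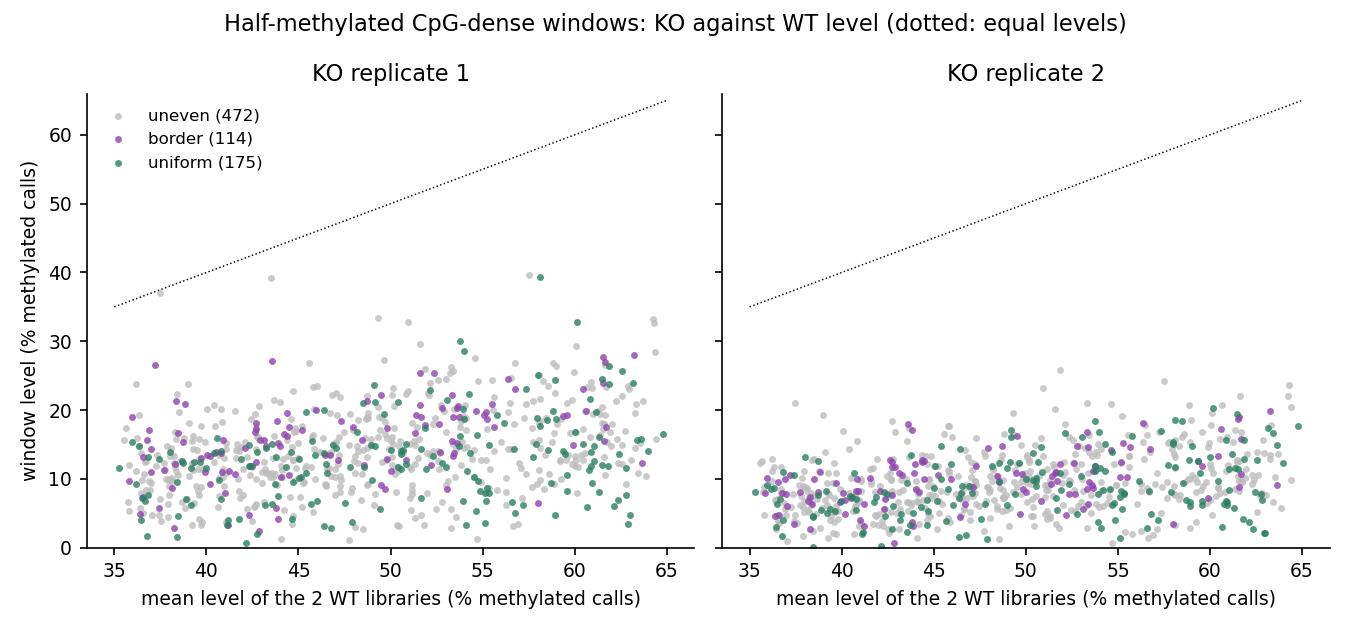
Each point is 1 of the 761 windows, with the mean of the 2 WT levels on the x axis and the level in 1 KO library on the y axis, both in percent of methylated calls; colours give the kind of window. Nearly all points lie far below the dotted line of equal levels, and KO replicate 2 (highest 25.9%) reaches less high than KO replicate 1 (highest 39.6%).

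The middle level itself was read again in a library that did not choose the windows. When the band was applied to WT replicate 1 alone, 868 windows qualified, and their mean level in WT replicate 2 was 49.3% with a range of 25.3 to 75.9%. KO held 23.8% of the WT level in that set. Among the 761 members the 2 WT libraries differed by a median of 2.35 points and by 5 points or less in 634. At the edges of the band, the window on chromosome 7 at 25786001-25787000 (WT 36.9% and 35.05%) was just inside and that on chromosome 3 at 38787001-38788000 (38.4% and 34.99%) just outside. At the upper edge the window on chromosome 2 at 69604001-69605000 (65.0% and 59.3%) was inside and another on that chromosome at 151795001-151796000 (65.0% and 64.7%) outside. KO levels in these 4 were 15.3% and 9.20%, 9.36% and 6.23%, 6.03% and 3.73%, and 31.8% and 25.6%, so windows on either side of an edge had KO levels within the members' range.

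The windows fell into 3 kinds by how the level was spread over their cytosines in pooled WT calls. Uniform windows, with an SD of cytosine levels of 15 points or less, numbered 175 (23.0%). Border windows, 114 (15.0%), had a larger SD and a single split, placed in WT replicate 1, across which levels in WT replicate 2 stepped by 40 points or more with at least 5 cytosines on each side. The other 472 (62.02%) were uneven without such a step. The SD of uniform windows had a median of 13.3 points, where counting error alone would give 6.32, so even these cytosines were not all alike. At the SD limit, the window on chromosome 7 at 125889001-125890000 (SD 14.99) was inside and that on chromosome 16 at 20822001-20823000 (SD 15.01) outside.

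The level left in KO was lowest in uniform and highest in border windows. Uniform windows went from 50.9% and 50.7% in the WT libraries to 12.9% and 8.86% in the KO libraries, or 21.4% of the WT level. Uneven windows went from 48.98% and 49.1% to 14.3% and 9.48% (24.2% of WT), and border windows from 47.1% and 47.7% to 15.6% and 9.87% (26.8% of WT). The order uniform, uneven, border held in each KO library. Replicate 1 of KO held 25.3%, 29.2% and 32.8% of the WT level, and replicate 2 held 17.4%, 19.3% and 20.8%. The gap between kinds was smaller than the gap between the 2 KO libraries, and the difference between kinds was not tested. KO minus WT was -39.9 points in uniform and -34.7 points in border windows (exact permutation p = 0.333 for each, the smallest possible). All 175 uniform and all 114 border windows were called lower, and 471 of 472 uneven ones. Of all windows tested 76.5% were called lower, and so were all 421 dense windows at 65 to 80% in WT. The calls thus do not tell the kinds apart.

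Mean KO levels were lowest in the windows that were flattest in WT. The 22 windows with an SD of 10 points or less had mean KO levels of 9.65% and 6.76%, which is 15.8% of WT. The share was 22.2% at an SD of 10 to 15 points (153 windows), 24.2% both at 15 to 20 (288) and at 20 to 25 (195), and 27.2% above 25 (103). WT levels of these classes lay between 47.8% and 52.4%, and median depth in WT replicate 1 between 31.8 and 35.6 calls per cytosine. Window by window the relation was loose, with a Spearman correlation of 0.193 between SD and share over 761 windows that share the same 4 libraries. Among uniform windows, the shallower 88 held 21.6% and the deeper 87 held 21.2%.

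Among cytosines between 20 and 80% in WT, the kinds were more alike in KO than their windows were. Of the uniform windows' 4525 cytosines, 95.6% had a pooled WT level between 20 and 80%, against 57.4% of 3185 in border windows, where 24.7% lay below 20% and 17.9% at 80% or more. The cytosines between 20 and 80% had mean KO levels of 12.6% and 8.60% in uniform, 14.1% and 9.33% in uneven and 14.0% and 8.67% in border windows. Cytosines at 80% or more in border windows stood at 35.4% and 23.1% in KO, the highest levels of any class there. In the same class uneven windows stood at 31.4% and 21.6%, and uniform windows, with only 125 such cytosines, at 27.6% and 21.8%. Here the kinds lay further apart than their windows in both KO libraries. In KO, 6.85% of cytosines in uniform windows had no methylated call at all, and 15.0% in border windows.

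**Figure D2:**
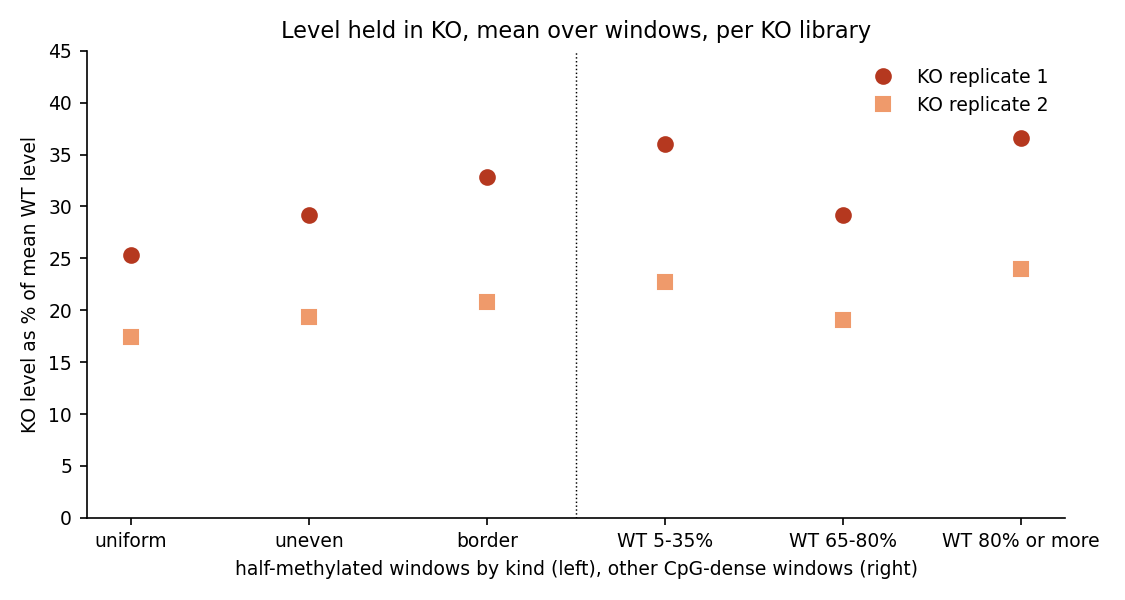
Points give the mean KO window level as a percent of the mean WT level (y axis) for uniform, uneven and border windows of intermediate level and, right of the dotted line, for other CpG-dense windows by WT level; circles are KO replicate 1 and squares KO replicate 2. Uniform windows are lowest in both KO libraries (25.3% and 17.4%), and windows at 80% or more in WT stand at 36.6% and 23.9%.

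Other dense windows were set beside the members by WT level. Windows at 5 to 35% in both WT libraries (2486) held 29.4% of their WT level in KO, members 23.9%, windows at 65 to 80% (421) 24.1%, and windows at 80% or more (1123) 30.3%, where levels went from 88.9% to 26.9%. Members and the 65 to 80% class thus differed by far less than the KO replicates did, and these classes were compared as a description with no test.

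The 10 most even uniform windows named had mean KO levels from 0.492% to 20.6%, the second highest being 9.74%. The window on chromosome 7 at 134755001-134756000 (mm9) held 34 cytosines with an SD of 5.97 points, against 5.19 from counting, at 52.8% and 43.0% in WT, and at 3.76% and 1.31% in KO. Its left neighbour was also uniform, at 51.7% and 61.9% in WT and 5.11% and 4.94% in KO. Another window of that chromosome, at 134379001-134380000, stood at 39.3% and 44.9% in WT and at 0.698% and 0.286% in KO, or 1.17% of its WT level, the lowest share of the 761. The KO levels of all 3 windows stayed under 6%.

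On chromosome 12 a pair of adjoining uniform windows covered 92885001-92887000. The first stood at 54.9% and 55.3% in WT and 7.92% and 7.32% in KO, and the second at 55.0% and 53.2% in WT and 3.38% and 2.90% in KO. KO was low in both, in both libraries. Another very even window, on chromosome 9 at 75230001-75231000, went from 38.0% and 38.8% in WT to 1.52% and 0.151% in KO. A window on chromosome 17 at 34070001-34071000, almost as even (SD 8.02), went from 63.8% and 62.5% only to 23.9% and 17.4%. Evenness in WT thus came with KO levels from below 1% to above 20%.

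Uniform windows with the highest KO levels were those on chromosome 1 at 122497001-122498000 (56.8% and 59.4% in WT, 39.3% and 18.6% in KO), chromosome 13 at 16192001-16193000 (60.6% and 59.6%, then 32.8% and 20.4%) and chromosome 1 at 75549001-75550000 (56.4% and 51.1%, then 30.0% and 18.4%). In all 3 the KO libraries differed by more than 10 points, more than the WT pair did. With edgeR's quasi-likelihood test the adjusted p was 0.000193, 2.83e-05 and 0.000196. Leaving out WT replicate 2 raised the first to 0.0634, and leaving out WT replicate 1 raised the last to 0.0836.

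**Figure D3:**
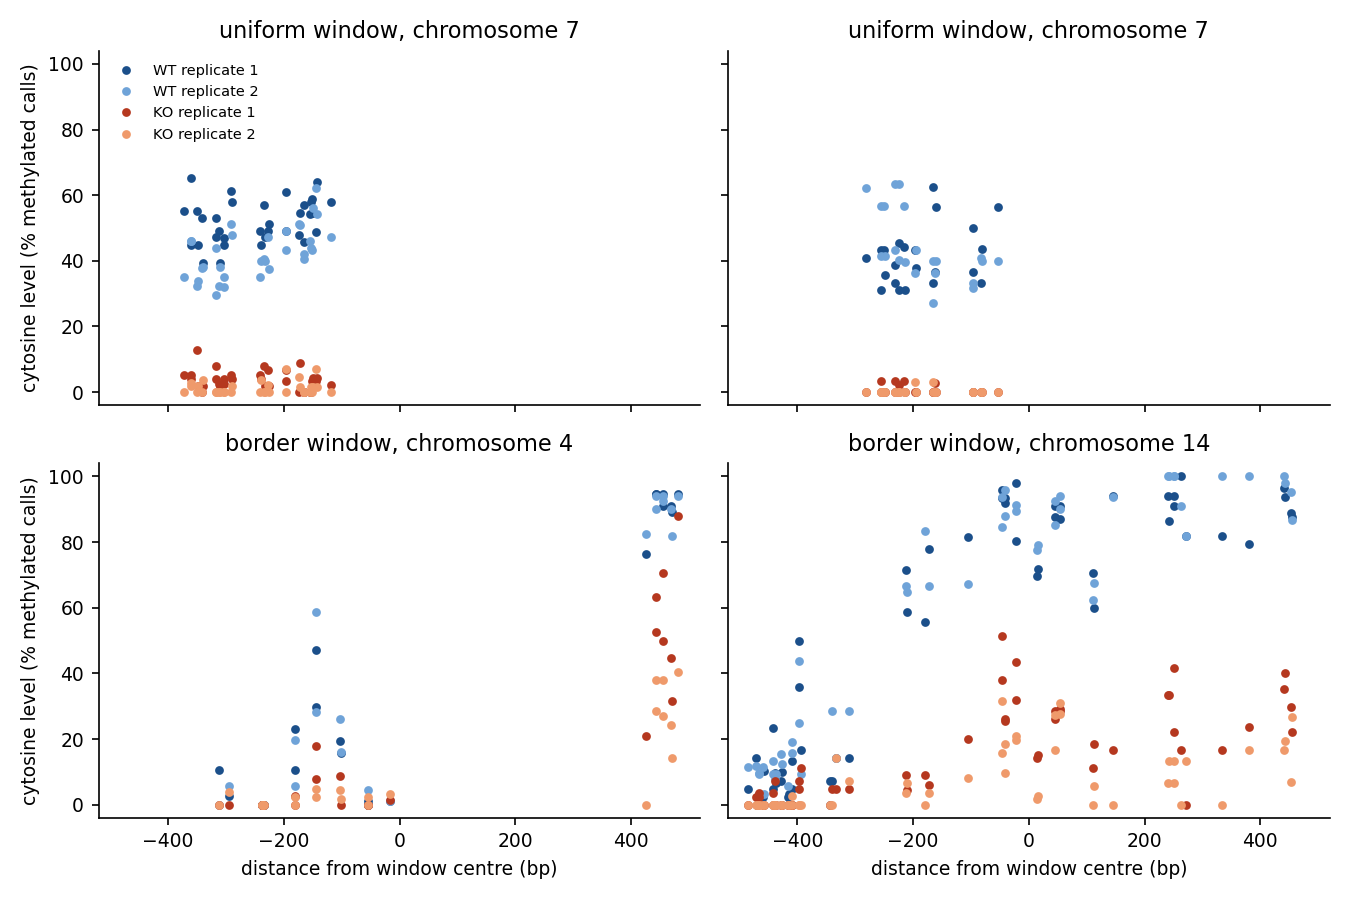
Each point is the level of 1 cytosine (y axis, percent of methylated calls) at its distance from the centre of its window (x axis, bp), in blue for the WT and red for the KO libraries. In the 2 uniform windows of chromosome 7 the WT cytosines lie in 1 band and KO lies near 0; in the border windows of chromosomes 4 and 14 WT levels step between a low and a high part, and KO is higher in the high part.

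Border windows kept their shape at a lower height. A step of 40 points or more in WT replicate 2 was part of how they were chosen, so the WT values of the 2 parts are a description. Over 114 windows the methylated part stood at 75.2% in WT replicate 2 and at 26.2% and 16.8% in the KO libraries. The other part stood at 23.6% in WT replicate 2 and at 6.89% and 4.34% in KO. The step was 51.6 points in WT replicate 2, and 19.3 and 12.4 points in the KO libraries, which had no part in the choice. The part that was higher in WT was also higher in both KO libraries in 113 of 114 border windows, 394 of 472 uneven and 107 of 175 uniform windows. The methylated part was on the right in 56 border windows and on the left in 58. The mean KO level was 28.6% of the level in WT replicate 2 in the high part and 23.8% in the low part.

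**Figure D4:**
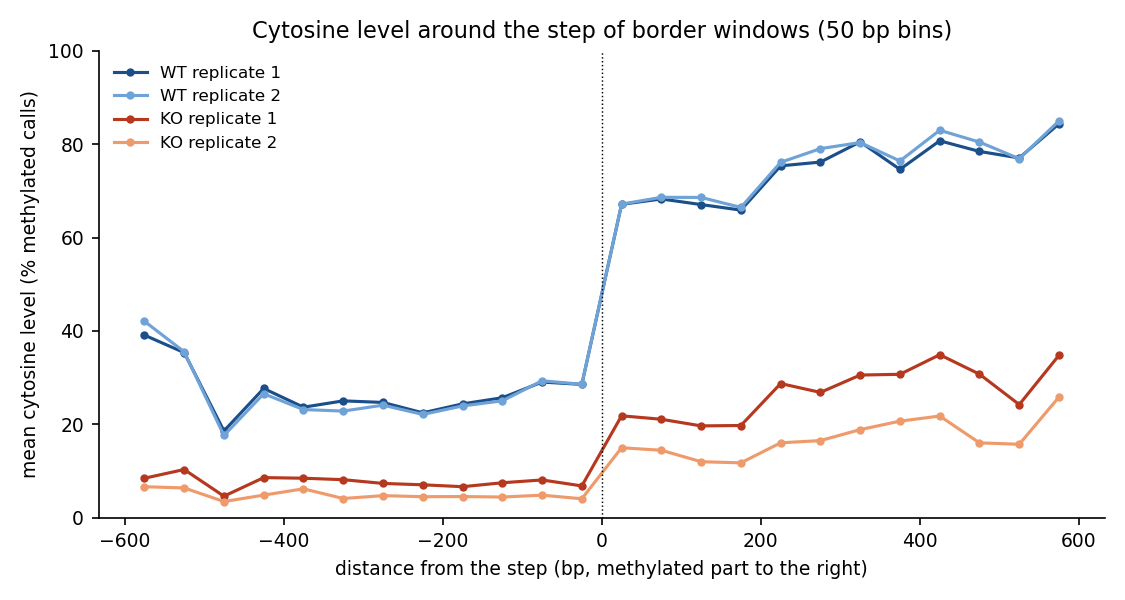
Lines give the mean cytosine level (y axis, percent of methylated calls) in 50 bp bins by distance from the step (x axis, bp), over the 114 border windows turned so that the methylated part is on the right; blue is WT and red is KO. WT levels go from 28.6% in the last bin before the step to 67.1% in the first after it, and KO levels from 6.83% and 4.08% to 21.8% and 15.0%.

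The level of a neighbouring window had no part in choosing the border beside it, though some neighbours were members too. The 34 measured neighbours on the methylated side had mean levels of 70.7% and 70.1% in WT and 25.8% and 16.4% in KO. The 53 on the other side had 22.0% and 21.5% in WT and 6.94% and 4.68% in KO. Of these neighbours, 4 and 12 were themselves at 35 to 65% in WT. Where both were measured, the neighbour on the methylated side was the higher in WT in 15 of 15 windows.

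Among the largest steps, the window on chromosome 14 at 60998001-60999000 held 24 cytosines at 13.1% and 32 at 87.1% in WT replicate 2. In KO the first part stood at 2.36% and 1.01% and the second at 24.01% and 12.2%. On its low side the next window was at 1.04% and 0.970% in WT, and on its high side at 97.7% and 98.0%. A window on chromosome 4 at 151809001-151810000 had parts at 11.03% and 89.8% in WT replicate 2, which stood at 2.58% and 52.8% in the first KO library and at 1.66% and 26.3% in the second. Its high part thus differed by far more between the KO libraries than its low part. Another on that chromosome, at 116691001-116692000, went from 78.2% to 23.2% and 14.6% in its high part and from 3.63% to 0.453% and 0.230% in its low part.

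Borders with the highest KO levels reached 28.1% and 19.9% on chromosome 10 at 80737001-80738000 (WT 62.9% and 63.6%), 27.8% and 18.9% on chromosome 8 at 126359001-126360000 (WT 61.9% and 61.2%) and 27.1% and 18.0% on chromosome 4 at 149033001-149034000 (WT 43.3% and 43.9%). In the last of these the high part went from 78.7% in WT replicate 2 to 49.1% and 31.2%. Its adjusted p (edgeR) was 0.00213, and 0.0967 and 0.104 without WT replicate 1 or 2. At the other end, a window on chromosome 13 at 47040001-47041000 went from 40.5% and 41.9% in WT to 3.29% and 3.13% in KO, and 1 on chromosome 16 at 30129001-30130000 from 41.2% and 46.5% to 4.21% and 3.13%. All of these KO levels lay below both WT levels of their windows, as in all 761 members and 89.0% of all windows tested.

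Most measured neighbours of uniform windows were not at an intermediate level. Most sides of the 175 uniform windows had no neighbour with 3 or more shared cytosines, so how far the level reached is unknown for most. Of 109 measured neighbours of uniform windows, 39 (35.8%) were themselves at 35 to 65% in WT, 47 (43.1%) were above 65% and 23 (21.1%) below 35%. Both sides were measured for 21 uniform windows: both neighbours were at 35 to 65% in 5, both above 65% in 3, both below 35% in 2, and 1 above 65% with 1 below 35% in 5. The 761 members formed 742 separate regions, 724 of a single window, 17 of 2 and 1 of 3. In 5 of the 18 longer regions every window was uniform. On chromosome 5 at 38284001-38286000, for example, levels of 50.9% and 42.6%, then 41.8% and 40.4% in WT faced 2.92% and 1.85%, then 3.25% and 1.98% in KO.

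Both strands of a CpG gave similar levels. At 7457 CpGs read on both strands in members, the strands differed on average by 10.4 and 10.8 points in the WT libraries, where counting error alone would give 9.10 and 9.75. In KO the difference was 7.31 and 6.11 points against 6.49 and 5.32 from counting. Depth did not set the members apart from the other dense windows, with a median of 34.2 calls per cytosine in WT replicate 1 against 34.5 over all dense windows, and 5 members at 2 times that median or more. Members made up 1.99% (chromosome 13) to 4.70% (chromosome 5) of a chromosome's dense windows, and KO held 17.6% (chromosome 16) to 27.8% (chromosome 11) of the WT level.

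A small set of windows kept much of its level in 1 KO library. The window on chromosome 19 at 44823001-44824000 stood at 37.8% and 37.2% in WT and at 37.0% and 21.0% in KO, and was the only member not called (edgeR adjusted p = 0.261). Without KO replicate 1 the adjusted p was 0.000271. One on chromosome 12 at 57791001-57792000 stood at 43.8% and 43.2% in WT, and at 39.3% and 15.5% in KO, with an adjusted p of 0.029 that rose to 0.271, 0.256 and 0.322 without WT replicate 1, WT replicate 2 or KO replicate 2. Another, on chromosome 11 at 118900001-118901000, held 39.6% and 24.2% in KO against 54.1% and 60.9% in WT, with an adjusted p of 0.000897, or 0.125 without WT replicate 2. In each of the 3 the higher KO level was that of replicate 1. By contrast, a window on chromosome 4 at 62320001-62321000 went from 56.5% and 52.9% to 1.34% and 0.648%.

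The 21 promoters among members belonged to 21 genes, 2.83% of 743 windows. The same rule, searched only among promoters of a window's own chromosome, found promoters in 31.6% of dense windows below 5% in WT. The share was 9.95% at 5 to 35%, 2.96% at 65 to 80% and 0.641% at 80% or more. Cytosine number differed too, and the rule needs at least 12 listed cytosines. Over chromosomes 1 to 19, windows below 5% had a median of 52 shared cytosines and those at 5 to 35% had 30. The median was 24 in members and at 65 to 80%, and 23 at 80% or more. Its part in these shares was not tested. Of the 16 germline genes listed, 7 were placed on any dense window and 2 on a member. Of 55 imprinted genes listed, 13 were placed and 0 on a member. Over all genes of the promoter table, 5069 were placed on any dense window and 21 on a member. With so few genes of any kind on members, nothing is read from the 0. Only promoters were matched, so imprinted sequence elsewhere was not looked for. The germline pair were Hormad1, which encodes a protein of the meiotic chromosome axis, and Tdrd1, a Tudor protein of the piRNA pathway in male germ cells. Levels over a promoter use every cytosine listed in its 300 bases, with no minimum of calls.

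At Hormad1 the promoter stood at 38.0% of 1301 calls and 44.8% of 1076 in WT, and at 4.84% and 2.11% of 1199 and 1374 calls in KO. Its window was uneven, with the highest WT levels among the cytosines farthest upstream. From 150 bases upstream to the start site, WT levels varied from site to site between 2.78% and 75.0%. At Tdrd1 the promoter had only 92 to 146 calls per library, at 33.8% and 40.2% in WT and 13.2% and 1.37% in KO. The 23 shared cytosines of that uniform window lay 148 to 296 bases downstream of the start site, so no shared cytosine was in the printed stretch.

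Clcn4, which encodes a chloride/proton exchanger, had the deepest of these promoters, with 3451 to 4156 calls. It stood at 45.2% and 43.2% in WT and at 2.52% and 0.770% in KO. Its window (chromosome 7 at 7252001-7253000) was a border whose 2 parts stood at 44.6% and 3.21% in WT replicate 2, with the change lying between the positions 7252242 and 7252281 that enclose the start site at 7252268. The upstream part was the methylated one, and it fell to 2.40% and 0.864% in KO. This window had the lowest KO level among borders (edgeR adjusted p = 1.17e-38, KO minus WT -41.2 points). It was unusually deep, with 3903 calls over 30 cytosines in WT replicate 1, where dense windows had a median of 34.5 calls per cytosine. With the deepest cytosines left out, KO minus WT was -38.8 points (edgeR adjusted p = 3.84e-26). The reason for the depth was not tested.

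Prss42, a testis serine protease, was the only promoter with shared cytosines on both sides of its start in a uniform window. It stood at 62.3% and 55.6% in WT (443 and 372 calls) and at 5.16% and 2.12% in KO (504 and 377 calls). Some other placed genes with germ-cell roles were named after their values were seen. Iho1, a partner of Hormad1 in meiotic break formation, went from 32.9% and 39.8% to 6.27% and 3.76%. Spag8, a sperm-associated antigen, went from 36.3% and 33.1% to 3.26% and 3.71%, and Tmprss12, a testis protease, from 45.3% and 46.2% to 12.3% and 9.52%. In each of these the KO libraries lay far below the WT pair.

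The Meioc promoter differed from these. Meioc is needed for meiotic prophase, and its promoter was itself nearly free of methylation in WT, at 4.41% of 136 calls and 4.26% of 141, with 1.28% of 156 and 0 of 176 calls in KO, which allows up to 1.70%. Its window is a border with one of the largest steps: the cytosines at its upstream end stood at 85.6% in WT replicate 2 and the others at 7.13%. The WT totals of this window, 43.9% and 60.7%, lay further apart than the levels of its high part, 83.5% and 85.6%. That part stood at 38.7% and 16.2% in KO.

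Among placed genes of other tissues, Lep, the gene of the hormone leptin, went from 60.1% and 56.6% in WT to 21.5% and 15.2% in KO. Hes7, a Notch-regulated repressor of the segmentation clock, stood at 16.2% and 22.6% in WT and 10.97% and 7.87% in KO, and is another promoter on the low part of a border. The other placed genes, which were not sorted by tissue, were Dcst1, 4933431E20Rik, Adgrl4, Pramel1, C130026L21Rik, Myo1h, Plut, Gm34222, Adad2, Rgl3 and Col6a5. Their promoters ranged from 7.04% (C130026L21Rik) to 20.5% (Myo1h) in KO replicate 1. In KO replicate 2 they ranged from 3.30% (Adad2) to 10.95% (Plut). Rgl3 was the lowest of them in WT, at 9.37% and 9.70%, and stood at 8.04% and 3.70% in KO. The shared cytosines of its window lay 120 bases or more upstream of its start.

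**Figure D5:**
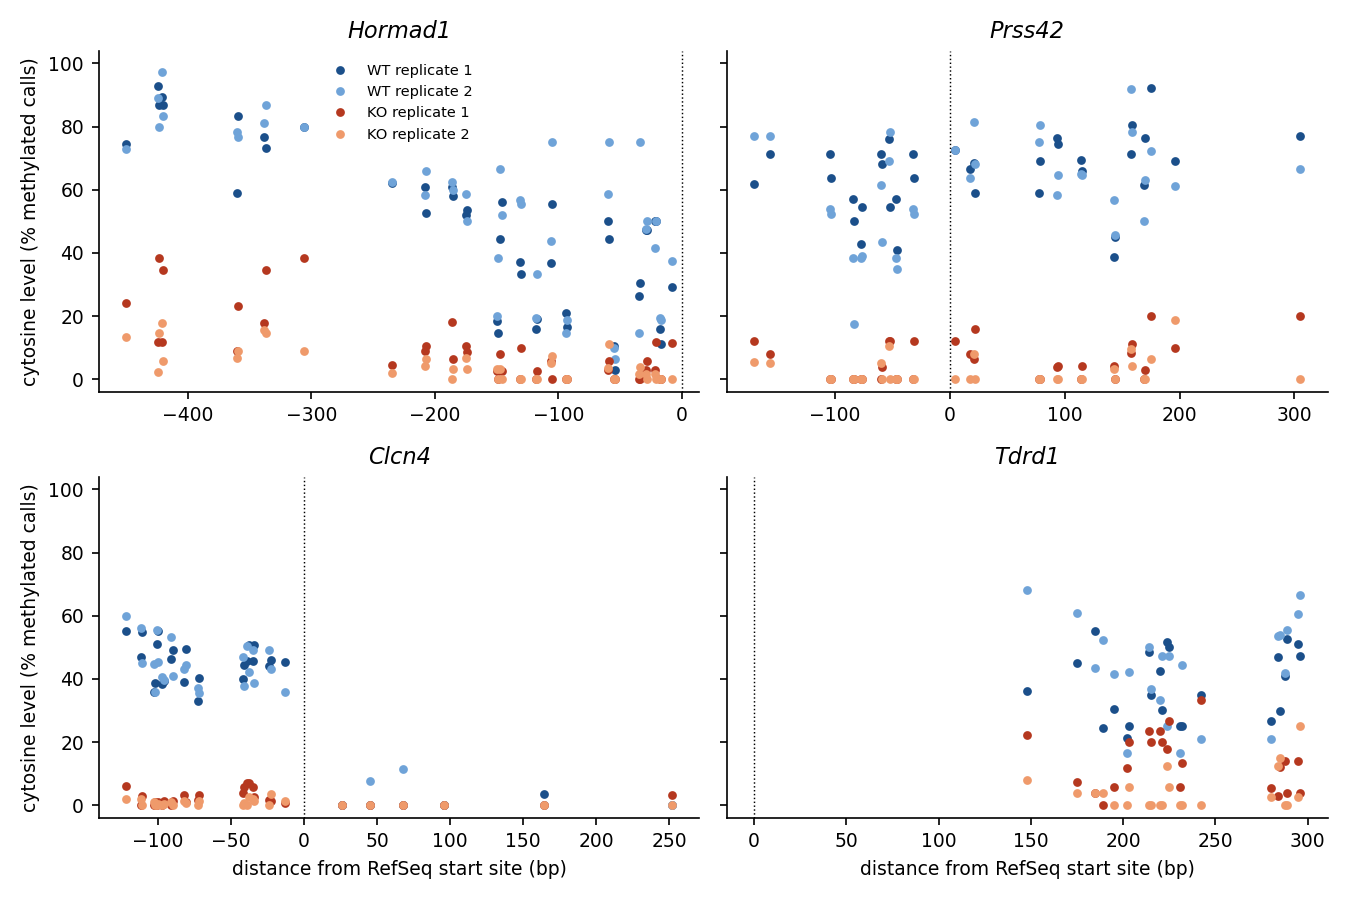
Each point is the level of 1 shared cytosine (y axis, percent of methylated calls) by its distance from the RefSeq start site (x axis, bp, negative upstream), for the windows at Hormad1, Prss42, Clcn4 and Tdrd1; blue is WT, red is KO and the dotted line is the start. At Hormad1 and Prss42 both KO points of each cytosine lie below both WT points; at 1 Tdrd1 cytosine and the 6 Clcn4 cytosines past the start, where WT levels are 0 to 11.5%, they do not all do so.

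The promoters were searched on both strands for CACGTG, the E-box read by Max and its partners, and TGCCGC, the core of the motif of Zfp57, a factor that guards imprinted methylation; these motifs do not overlap in sequence. CACGTG was found in 5 of 21 (23.8%), against 7.15% of 32851 promoters of the table and 11.1% of those with 24 or more CpG cytosines. The 5 were Adad2, Clcn4, Hormad1, Prss42 and Tdrd1. In the printed stretches it begins 57 and 20 bases before the start of Hormad1, 49 before that of Prss42, 153 before that of Clcn4 and 11 before that of Tdrd1. TGCCGC was found in Clcn4 and Tmprss12 (9.52%), against 11.6% and 23.5%. These are matches of letters in few promoters and were not tested.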

How the data were processed

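The authors deposited, for each of 4 libraries, a table of CpG cytosines with the methylation level in percent and whole, unnormalised counts of methylated and unmethylated calls. The submitters' processing notes name Bismark 0.10.1, Trim Galore and mm9. Settings for trimming and duplicates are not stated, and PCR copies were not told apart. Only the deposited counts were used.

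The members, gene lists and tests were chosen with earlier results of these data known. With edgeR 4.0.16 under R 4.3.3, its quasi-likelihood test compared unmethylated with methylated counts between genotypes, with 1 term for each library, over 119319 autosomal windows with 3 or more shared cytosines, of which 118948 could be fitted; the others got a p of 1. Adjustment was by Benjamini-Hochberg. In simulated data of 119319 windows with the spread of the WT pair, 80 of 100 windows that were lowered by 30 points were called, and 0 of 119119 unchanged ones. Of 100 lowered by 15 points 0 were called. The real KO libraries lay further apart (SD of member means 3.37 points, against 0.108 in WT). In the real data 76.5% of windows were called lower, so the simulated rates need not hold there.

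Named windows are the 10 most even uniform ones, those with the highest and lowest KO levels or largest steps, those with the highest and lowest share of WT held in KO, and matches to the imprinted and germline lists; a part of them is described. Figures used matplotlib 3.10.9, and exact permutation tests and intervals scipy 1.17.1 and Python 3.11.15.

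With no mm9 annotation at hand, promoters were placed by CpG spacing. The first rule (15 or more shared cytosines of a window on CpGs of 1 promoter) placed 116 promoters in 98 windows, 100 of them on another chromosome than RefSeq gives. A stricter rule was therefore chosen after seeing the data: every cytosine listed in the 300 bases on a CpG, at least 12 of them, and at least 60% of the promoter's CpG cytosines listed. It gave 22 placements in 21 windows, all 22 on the right chromosome and 0 on another. For the members, placement on the right chromosome was counted after matching and was not a condition. For all dense windows, only promoters of the window's own chromosome were searched. Members of a chromosome without promoters in the table were not analysed here for promoters. Other coverage, density, band, SD and step limits, shifted windows, limma 3.58.1, Fisher's exact test, centring, a replicate block and each library left out were the alternatives.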

Additional observations from a re-analysis of the deposited data

How the results depend on the processing

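KO minus WT over the members lay between -39.8 and -35.05 points under the coverage, density, band, window, depth, chromosome and left-out-library alternatives; it was not recomputed under centring, limma, Fisher's test or the replicate block, which were run for calls. The KO level moved by no more than 1 SD of the KO libraries, from 8.21% (SD limit of 10 points) to 12.9% in uniform and from 9.87% to 15.6% in border windows. A coverage minimum of 5 gave 1244 members (1242 called lower, 205 borders, 1215 regions), a strand difference of 11.9 points and a depth of 0.932 times that of all dense windows (0.993 in the report's setting). A minimum of 20 gave 283 members (283 called, 81 uniform, 43 borders, 276 regions), 9.22 points and 1.01. At least 10 cytosines gave 3162 members (3156 called, 900 uniform, 310 borders, 3042 regions), 11.3 points and 0.997; at least 40 gave 70 (70 called, 11 uniform, 14 borders, 66 regions), 9.92 points and 1.04. A band of 40 to 60% gave 463 members (463 called, 100 uniform, 69 borders, 456 regions) and a depth of 0.996. The depth was 0.985 with the band in WT replicate 1 only, 0.997 with windows shifted by 500 bp and 0.996 without chromosome 8; with 1 library left out it ran from 0.985 to 0.993. An SD limit of 10 points gave 22 uniform windows and one of 20 gave 463; a step of 60 points gave 21 borders. Centring on the library median put 11 members below the shift and 426 above it. The promoter rule fixed first placed promoters in 98 windows, the stricter rule, chosen after seeing the data, in 21. The cause of these changes was not tested.

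The labels do not say whether the replicate numbers pair the libraries. The deviations of same-numbered libraries from their group means had a correlation of -0.00371 over all windows. A correlation over windows cannot see a shift common to all windows, so it does not decide whether the libraries are paired. The replicate block gave 760 calls. With 1 library left out, calls ran from 759 to 843, of other numbers of members: 824 of 844 (97.6%) without WT replicate 1, 843 of 868 (97.1%) without WT replicate 2, 761 of 761 without KO replicate 1 and 759 of 761 without KO replicate 2. Uniform windows ran from 128 to 175. Limma called 758, Fisher's exact test 760, and a minimum difference of 25 points 727. Over the 36 named windows, 10 of the values under an alternative lost the call, 1 gained it and 415 stayed on the same side of the threshold. The window on chromosome 12 at 57791001-57792000 had an adjusted p of 0.051 with a coverage minimum of 5 and 0.112 with limma. Depth limits a single window's KO level to a median of 2.34 and 1.92 points to either side.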
